A study of Mus musculus with 12 samples.

Results

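Genes of the glucocorticoid response, 9 in number, were followed through mouse hernia-associated fibroblasts (HAFs) cultured with estradiol (E2), with the estrogen receptor antagonist fulvestrant, with both or with neither. They were Fkbp5, Nr3c1, Klf9, Klf15, Pdk4, Cebpd, Dusp1, Ddit4 and Bcl6. The 9 genes were chosen by name from 13233 genes, with earlier results of these libraries known, in particular the difference between E2 and E2 plus fulvestrant. That difference is therefore given here as a description without a test.

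Glucocorticoids such as corticosterone bind the glucocorticoid receptor, the product of Nr3c1, which sits in the cytoplasm with Hsp90 and cochaperones until it binds hormone. The receptor then moves to the nucleus, binds DNA and raises or lowers the transcription of many genes, among them FKBP5, whose product binds Hsp90 and lowers the affinity of the receptor for its hormone. In muscle and connective tissue the response is known for restraint of inflammatory signalling and for a shift in the use of glucose, fat and protein. Each of these genes also answers to other signals, so none of them alone is a measure of the hormone.

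All 12 libraries came from primary fibroblasts of the lower abdominal muscle of Aromhum mice, which carry the human aromatase gene on a bacterial artificial chromosome in the FVB/N strain and so make estrogen from androgen in many tissues. Per the methods only males were used, and the age of the donor animals of these cultures is not given in the sources used here. The cells had been passaged once, starved overnight without serum or phenol red, and then kept for 48 h in medium with a little charcoal-stripped serum. Each group had 3 libraries. Controls received the solvents ethanol and DMSO (vehicle), and the treated groups received E2 at 10 nM, fulvestrant at 100 nM, or both at these doses, with fulvestrant or DMSO given before E2 or ethanol. No glucocorticoid is named among the additions. Nothing in the labels says that replicates 1, 2 and 3 were separate animals or cultures, so their spread may be technical. As replicate number is a term of the fit, the p-values measure how evenly differences recur within these numbers. They do not measure the spread between replicates.

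Read numbers were worked out from the common step of which the values of a library are whole multiples, since read counts themselves were not among the files used here. By that step the libraries held between 18827792 and 44040507 reads on the listed genes (median 31703872.5), and no listed gene had fewer than 10 reads in any library. Values are normalized counts, that is read counts divided by one factor per library. Of the fibroblast markers, 9 of 9 were listed, and Pdgfra, which encodes a receptor for platelet-derived growth factor, averaged 32021 in vehicle. None of the 7 markers of muscle cells was listed, and 1 of 5 endothelial, 3 of 6 macrophage and leukocyte, 1 of 6 adipocyte, 4 of 5 mural and 2 of 4 Schwann cell markers were. A gene not listed may still have had reads below the minimum of the table.

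Replicate 1 stood apart from replicates 2 and 3 for some genes. An example is Hspa1a, a heat shock gene picked here after its values were seen, with 115, 5090.1 and 4542 normalized counts in vehicle replicates 1, 2 and 3. Among the 9 genes the gap was widest for Dusp1, where vehicle replicate 1 differed from the mean of the other two by -2.95 on the log2 scale. For Dusp1 it was -2.41 with E2, -1.76 with fulvestrant and -1.21 with E2 plus fulvestrant. Other gaps were small, such as that of Klf15 with E2 plus fulvestrant (-0.04). The same-numbered libraries deviated together, so the comparisons were made within replicate numbers, and values without replicate 1 are given beside them.

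The bases upstream of the genes are shown first, because genes that move together could share a short element there. RefSeq promoter windows (GRCm38.p6) matched 7 of the 9 genes in 8 windows, since Bcl6 has a pair of starts. Of each window, the 250 bases before the RefSeq transcription start were searched on both strands. For Fkbp5 and Dusp1 this window lies wholly inside the gene position given below, which comes from another annotation. Bases before the outer starts of that annotation were not searched. Shown are Fkbp5, the gene with the widest difference, and the windows in which a searched element was found, with the matches in capitals and each sequence read 5′ to 3′ on the gene's strand.
Fkbp5, chr17:28486150-28486399, minus strand: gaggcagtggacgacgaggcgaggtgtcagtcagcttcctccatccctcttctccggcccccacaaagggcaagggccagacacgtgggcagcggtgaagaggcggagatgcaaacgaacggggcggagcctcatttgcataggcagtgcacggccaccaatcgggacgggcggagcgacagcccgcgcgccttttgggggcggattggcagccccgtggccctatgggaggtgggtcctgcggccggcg
Dusp1, chr17:26508473-26508722, minus strand: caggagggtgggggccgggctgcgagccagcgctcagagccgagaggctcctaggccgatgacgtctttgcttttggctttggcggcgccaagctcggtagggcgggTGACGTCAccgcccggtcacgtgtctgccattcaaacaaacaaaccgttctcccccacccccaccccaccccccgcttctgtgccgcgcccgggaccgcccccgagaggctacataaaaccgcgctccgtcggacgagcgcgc
Bcl6, second start, chr16:23981284-23981533, minus strand: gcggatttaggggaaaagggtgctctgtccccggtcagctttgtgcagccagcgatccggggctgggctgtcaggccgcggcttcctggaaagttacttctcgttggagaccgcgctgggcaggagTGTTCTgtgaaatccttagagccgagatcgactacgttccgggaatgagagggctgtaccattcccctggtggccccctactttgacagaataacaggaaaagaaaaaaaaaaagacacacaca

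The full palindromic glucocorticoid element, AGAACA and TGTTCT with any 3 bases between them, was found in 0 of the 8 windows, and 0.00913% of the 32851 RefSeq windows of the same length held it. Its right arm, TGTTCT, which a full element would contain, was found in 1 window, 124 bases before the second start of Bcl6, against 16.1% of all windows. The estrogen element, GGTCA and TGACC with any 3 bases between them, was in 0 of the 8 windows and in 0.0639% of all. The cAMP element TGACGTCA stood 143 bases before the RefSeq start of Dusp1, and 1.55% of all windows held one. TATAAA was found in 0 of the 8 windows and in 12.4% of all. These letters describe the windows only, and distal elements were not examined.

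**Figure D1:**
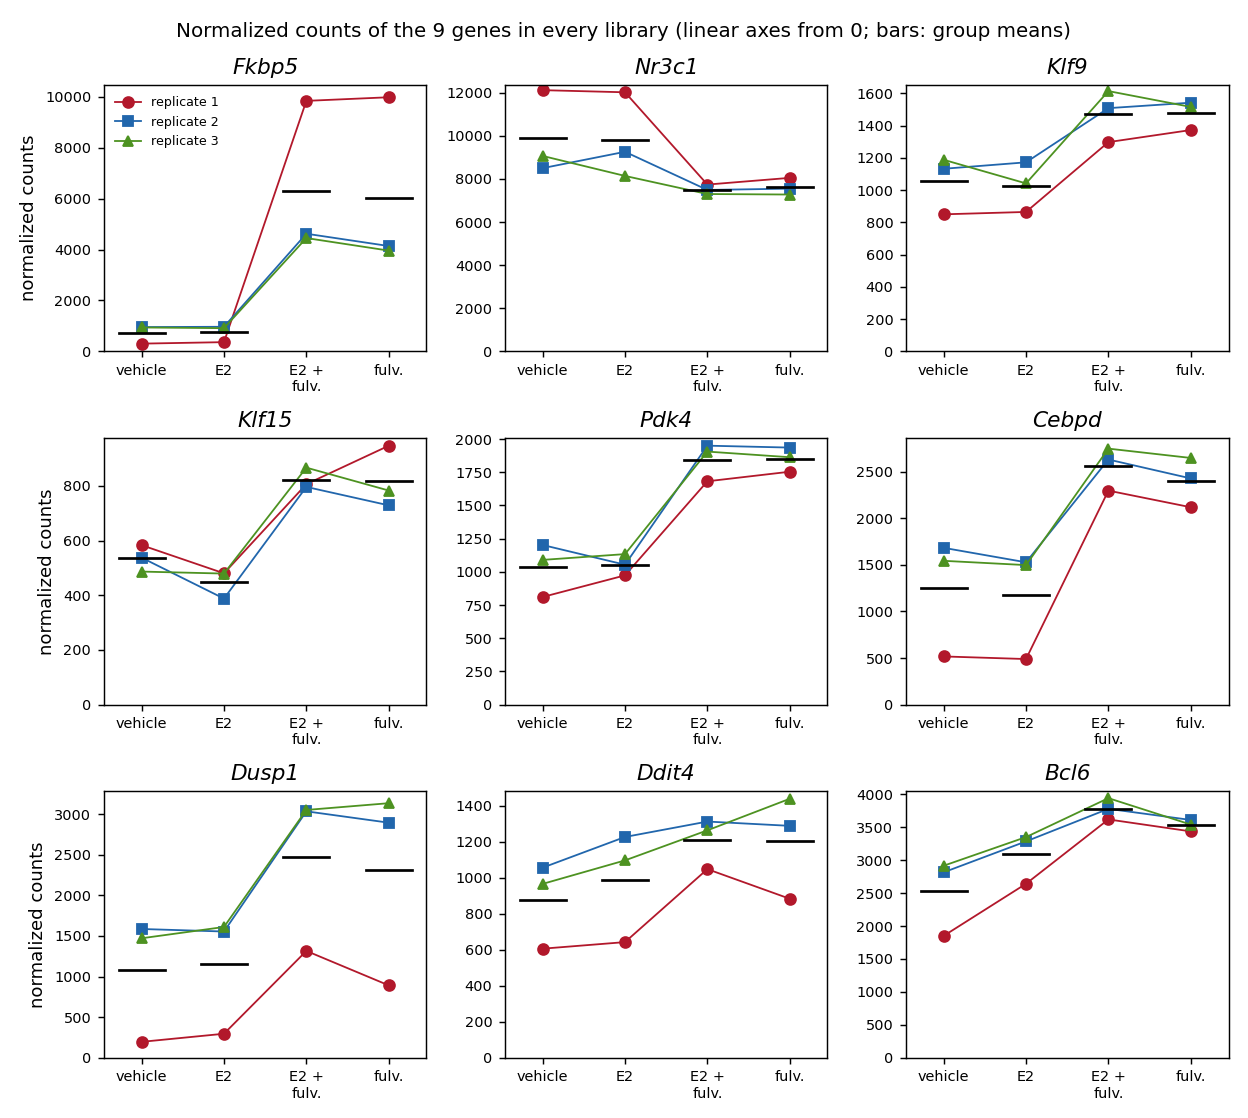
Normalized counts (linear axes from 0) of the 9 genes in each of the 12 libraries by group, with lines joining libraries of the same replicate number and black bars for group means. The lines step up between the libraries without and with fulvestrant for 8 genes and down for Nr3c1, and replicate 1 of Fkbp5 runs from the lowest value without fulvestrant (307) to the highest with it (9974).

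The first question was what fulvestrant did in the absence of added E2. Against vehicle, Fkbp5, Klf9, Klf15, Pdk4, Cebpd, Dusp1, Ddit4 and Bcl6 were higher with fulvestrant, from 1.38-fold for Ddit4 to 8.38-fold for Fkbp5, and Nr3c1 was lower, at 0.779 of its vehicle level. All 9 passed the test (limma with the replicate number as a block, Benjamini-Hochberg adjusted p under 0.05 over all genes and a fold change over 1.2), with 8 higher and 1 lower. Over all 13233 genes, 6.76% were called higher and 5.69% lower, 12.5% in either direction. The fold changes are on the scale of log2(normalized count + 1). The 2 groups compared hold none of the libraries of E2 against E2 plus fulvestrant, but the fit took its spread from those libraries too. As the genes were also listed with results of this experiment known, the count is not independent evidence about them. Without the replicate block, 1 of the 9 genes, Pdk4, was called, and 72 of all genes were called in place of 1648. With the block, 8 of the 9 were called without replicate 1, 5 without replicate 2, 4 without replicate 3 and 6 when only the 2 groups compared were fitted. In the same order, these fits called 2312, 540, 399 and 692 of the 13233 genes. As these are bulk cultures, fewer cells of a kind and less RNA per cell cannot be told apart.

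Nr3c1, the receptor gene (ENSMUSG00000024431, chr18:39410545-39519421, minus strand), had the highest mean per exon length of the 9 genes in each of the 4 groups. Vehicle replicates 1, 2 and 3 had 12120.1, 8502 and 9069 normalized counts and E2 replicates had 12021, 9261 and 8141. With E2 plus fulvestrant the values were 7741, 7491 and 7302, and with fulvestrant alone 8052, 7552 and 7278. All 6 libraries with fulvestrant lay below all 6 without, and replicate 1 stood above the others mainly where fulvestrant was absent. The difference between fulvestrant and vehicle was -0.36 on the log2 scale (SE 0.09, n = 3 per group, limma adjusted p = 0.0258). It was -0.24 without replicate 1, which is under the fold of the call (limma adjusted p = 0.0282), and -0.45 and -0.38 without replicate 2 or 3, where it was not called (limma adjusted p = 0.0862 and 0.153).

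Fkbp5 (ENSMUSG00000024222, chr17:28399094-28517527, minus strand) encodes the Hsp90 cochaperone FKBP51 and had the widest difference of the 9. Vehicle replicates 1, 2 and 3 had 307, 956 and 941 normalized counts, and E2 replicates had 365, 968 and 914. E2 plus fulvestrant gave 9832, 4619 and 4449, and fulvestrant alone 9974, 4136 and 3957. The highest of the libraries without fulvestrant reached 968 and the lowest with it 3957, so the sets did not overlap. Replicate 1 was the lowest of its group without fulvestrant and the highest with it. Within replicate numbers, fulvestrant was 32.5-fold, 4.33-fold and 4.21-fold above vehicle. The fitted difference was 3.07 on the log2 scale (SE 0.55, 95% confidence interval 1.85 to 4.29, limma adjusted p = 0.0044). It was 2.09 without replicate 1 (limma adjusted p = 5.53e-08), still called, and without the replicate block the adjusted p was 0.0557.

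Klf9, Klf15, Cebpd and Bcl6, which also encode transcription factors, rose. Klf9 (ENSMUSG00000033863, chr19:23141226-23168134, plus strand) encodes a zinc finger factor that binds GC-rich promoters. It had 850.3, 1133 and 1188 normalized counts in vehicle and 865, 1173 and 1042 with E2. E2 plus fulvestrant gave 1298, 1509 and 1614, and fulvestrant 1373, 1542 and 1516. The lowest library with fulvestrant was above the highest without. The difference of fulvestrant from vehicle was 0.50 on the log2 scale (SE 0.07, limma adjusted p = 0.00146) and 0.40 without replicate 1.

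Klf15 (ENSMUSG00000030087, chr6:90462576-90475238, plus strand), a factor known for control of amino acid and lipid use in muscle, had 583, 538 and 487 normalized counts in vehicle and 480.4, 388 and 479 with E2. With E2 plus fulvestrant the values were 807, 796 and 867, and with fulvestrant 947, 729 and 783. Of the 9 genes Klf15 had the smallest gap between replicate 1 and the others in vehicle, where replicate 1 was higher by 0.19 on the log2 scale. Fulvestrant exceeded vehicle by 0.61 on the log2 scale (SE 0.10, limma adjusted p = 0.00216) and by 0.56 without replicate 1.

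Cebpd (ENSMUSG00000071637, chr16:15887286-15891031, plus strand) encodes C/EBP delta, a leucine zipper factor of the acute-phase and early adipogenic responses. Its vehicle values were 517, 1683 and 1544 normalized counts, and its E2 values 489, 1528 and 1498. With E2 plus fulvestrant they were 2298, 2631 and 2748, and with fulvestrant 2119, 2429 and 2648. Replicate 1 differed from the mean of the others by -1.64 on the log2 scale in vehicle and by -0.26 with fulvestrant. The difference was 1.11 on the log2 scale (SE 0.29, limma adjusted p = 0.0247) with all libraries and 0.65 without replicate 1 (limma adjusted p = 1.40e-04). Cebpd was not called without replicate 2 or 3 (limma adjusted p = 0.0726 and 0.145).

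Bcl6 (ENSMUSG00000022508, chr16:23965052-23988852, minus strand), which encodes a transcriptional repressor best known in germinal centre B cells, had 1851, 2815 and 2915 normalized counts in vehicle and 2641.5, 3285 and 3350.3 with E2. In E2 plus fulvestrant it had 3618, 3779 and 3941, and with fulvestrant 3437, 3609.9 and 3540.2. The E2 libraries came close to those with fulvestrant, with 3350.3 as the highest E2 value and 3437 as the lowest with fulvestrant. The difference of fulvestrant from vehicle was 0.51 on the log2 scale (SE 0.10, limma adjusted p = 0.0073), and it was 0.32 without replicate 1. Without replicate 2 or 3 it was not called (limma adjusted p = 0.0624 and 0.054).

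Pdk4 (ENSMUSG00000019577, chr6:5483351-5496309, minus strand) encodes a kinase that inactivates pyruvate dehydrogenase and so spares glucose. It had 811, 1202 and 1090.0 normalized counts in vehicle and 974, 1054 and 1134 with E2. E2 plus fulvestrant gave 1682, 1950.4 and 1906, and fulvestrant 1754, 1936 and 1863. The groups with and without fulvestrant were far apart relative to their spread, with 1202 as the highest value without and 1682 as the lowest with it. The difference was 0.86 on the log2 scale (SE 0.08, limma adjusted p = 1.18e-04), the smallest adjusted p of the 9, and it was called without the replicate block too (limma adjusted p = 0.0295). It was 0.73 without replicate 1.

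Dusp1 and Ddit4 act on kinase signalling. Dusp1 (ENSMUSG00000024190, chr17:26505590-26562128, minus strand) encodes a phosphatase that switches off MAP kinases. It had 196, 1586 and 1472 normalized counts in vehicle and 296, 1555 and 1610.5 with E2. Under E2 plus fulvestrant the values were 1316, 3035 and 3052, and with fulvestrant 892, 2895 and 3135. Here the groups overlapped, since replicate 1 with fulvestrant stayed below replicates 2 and 3 without it. Within replicate numbers, fulvestrant was 4.54-fold, 1.83-fold and 2.13-fold above vehicle. The fitted difference was 1.38 on the log2 scale (SE 0.27, limma adjusted p = 0.0071) and 0.98 without replicate 1. Without replicate 3 it was not called (limma adjusted p = 0.079).

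Ddit4 (ENSMUSG00000020108, chr10:59949669-59951834, minus strand) encodes REDD1, an inhibitor of mTORC1 signalling that also rises in stress. It had 607, 1057 and 967 normalized counts in vehicle and 643, 1228 and 1097 with E2. With E2 plus fulvestrant it had 1049, 1313 and 1265, and with fulvestrant 884, 1289.5 and 1440.1. These groups overlapped too, as replicate 1 was the lowest in each. The difference of fulvestrant from vehicle was 0.47 on the log2 scale (SE 0.11, limma adjusted p = 0.0139) and 0.43 without replicate 1, and it was not called without replicate 2 or 3 (limma adjusted p = 0.0562 and 0.181).

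The 6 libraries with and the 6 without fulvestrant were separated for 7 of the 9 genes, all but Dusp1 and Ddit4. Of all genes, 4.30% were separated in that way, 2.14% higher and 2.16% lower with fulvestrant. This split includes the E2 and E2 plus fulvestrant libraries, whose difference was known when the genes were listed, so nothing is read from the count. Against vehicle, the sign was that of the fitted difference in all 3 replicate numbers for all 9 genes, while 45.1% of all genes had one sign in all 3. For 8 of the 9 genes the widest difference from vehicle was that of replicate 1, which held for 30.1% of all genes. Between E2 plus fulvestrant and E2 it was that of replicate 1 for 6 of the 9, and for 34.1% of all genes.

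**Figure D2:**
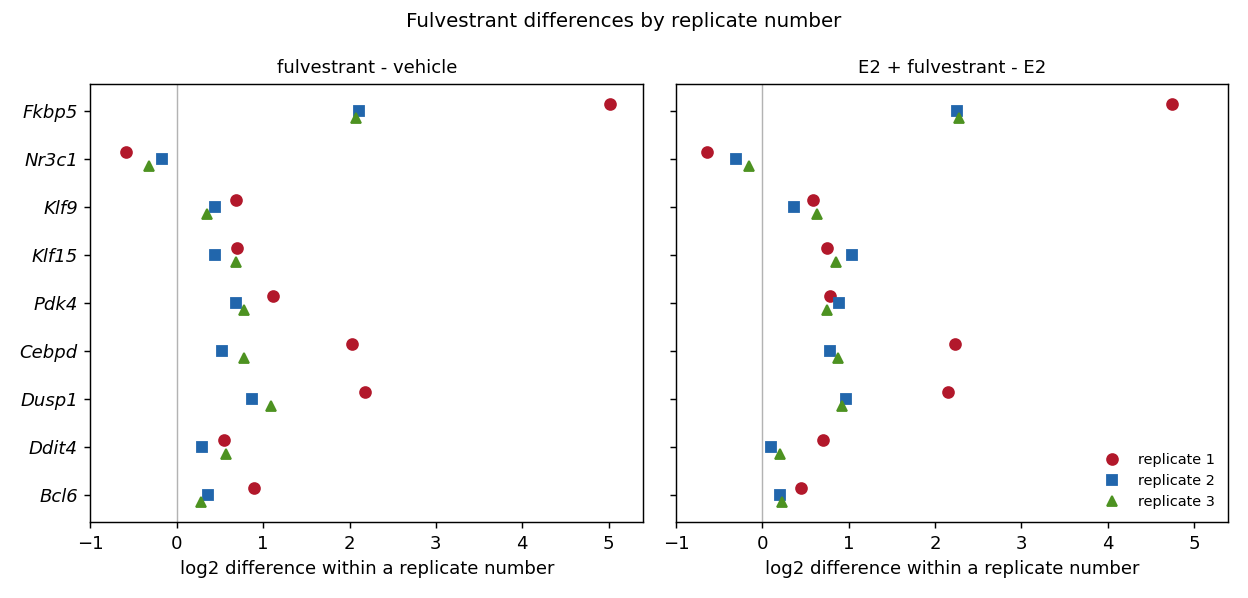
Log2 differences within replicate numbers (x axis) for the 9 genes, fulvestrant minus vehicle at the left and E2 plus fulvestrant minus E2 at the right, with a symbol and colour per replicate number. All points lie above 0 except those of Nr3c1, and replicate 1 lies farthest out for Fkbp5 (5.02 and 4.75), Cebpd (2.03 and 2.23) and Dusp1 (2.18 and 2.15).

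Levels of different genes can be compared only per length, here per 1000 bases of annotated exon. In vehicle, Nr3c1 had the highest level, 1288 normalized counts per kilobase ± 253 (SD, n = 3), and did not overlap with any other gene. Ddit4 (499.6 ± 136), Bcl6 (377 ± 87.7), Cebpd (333 ± 170.0), Dusp1 (328 ± 233), Pdk4 (295 ± 57.5), Klf9 (219.5 ± 37.7) and Klf15 (192 ± 17.3) followed, each overlapping the next in its range over replicates. Fkbp5 was the lowest at 77.6 ± 39.1 and did not overlap Klf15. With fulvestrant, Nr3c1 was still highest at 993 ± 51.0, and Fkbp5 ranked 5 of 9 at 636 ± 362, overlapping both of its neighbours, Cebpd (640.3 ± 71.0) and Pdk4 (527 ± 26.1). Its range, 418 to 1053, also overlapped that of Nr3c1, 947 to 1048, because replicate 1 of Fkbp5 was high. Klf9 (307 ± 19.0) and Klf15 (294 ± 40.7) were then the lowest. These levels assume that all annotated exons of a gene are in use.

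Addition of E2 alone was compared with vehicle next, to see whether the agonist moved the genes as well. None of the 9 genes was called (0 of 9), and 0.0756% of all genes were (10 genes), all of them higher. Log2 differences ran from -0.26 for Klf15 to 0.31 for Bcl6, and limma adjusted p-values from 0.457 to 0.973. At an unadjusted p under 0.05 there were 1340 genes, 2 of them among the 9. Klf15 was lower with E2 in all 3 replicate numbers, at 0.837 of vehicle (95% confidence interval of the log2 difference -0.47 to -0.04, limma adjusted p = 0.468). Bcl6 was higher in all 3, at 1.24-fold (0.09 to 0.54, limma adjusted p = 0.457).

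Intervals of the other differences between E2 and vehicle were widest where replicate 1 stood apart. For Fkbp5 the log2 difference was 0.08 with an interval from -1.14 to 1.29, and for Cebpd it was -0.09 with an interval from -0.72 to 0.55. Dusp1 had 0.23, from -0.37 to 0.83. The narrower ones were those of Nr3c1 at -0.01 (-0.22 to 0.19), Klf9 at -0.04 (-0.20 to 0.12), Pdk4 at 0.04 (-0.14 to 0.22) and Ddit4 at 0.16 (-0.07 to 0.40). Without replicate 1, Fkbp5 had -0.01, Nr3c1 -0.02, Klf9 -0.07, Klf15 -0.25, Pdk4 -0.07, Cebpd -0.09, Dusp1 0.05, Ddit4 0.20 and Bcl6 0.21, and 0 of the 9 were called. Fkbp5 and Pdk4 thus changed sign, and Dusp1 did when vehicle replicate 1 alone was left out (-0.16).

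**Figure D3:**
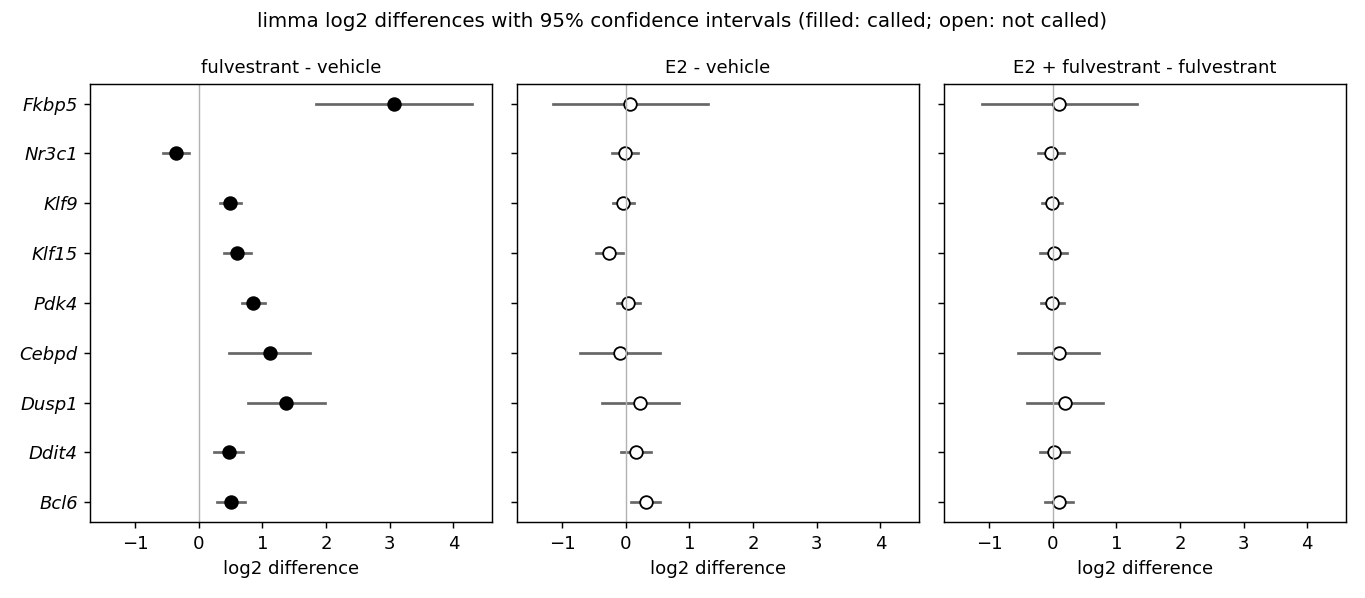
Fitted log2 differences (x axis) with 95% confidence intervals for the 9 genes in the 3 tested comparisons, 3 libraries a group, with filled symbols for genes called and open symbols for genes not called. All 9 are filled for fulvestrant against vehicle, with 8 above 0, and all are open in the comparisons of E2 against vehicle and of E2 plus fulvestrant against fulvestrant.

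E2 given together with fulvestrant was compared with fulvestrant alone to ask what E2 still did under the antagonist. None of the 9 genes was called (0 of 9) and 0% of all genes were, with 255 genes at an unadjusted p under 0.05 and 0 of them among the 9. The log2 differences lay between -0.02 for Nr3c1 and 0.20 for Dusp1, and every limma adjusted p was 1.00. Fkbp5 had 0.10 with an interval from -1.12 to 1.32, and Pdk4, the gene with one of the narrowest intervals, -0.01 from -0.19 to 0.17. Without replicate 1 the differences lay between -0.08 for Ddit4 and 0.16 for Fkbp5, with 0.01 for Dusp1, and again 0 of the 9 were called. Whether the effect of E2 differed between cells with and without fulvestrant was not tested.

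The comparison in whose light the genes were listed, E2 plus fulvestrant against E2, gave log2 differences of 3.09 for Fkbp5 (SE 0.55), -0.37 for Nr3c1 (0.09), 0.53 for Klf9 (0.07), 0.88 for Klf15 (0.10), 0.81 for Pdk4 (0.08), 1.30 for Cebpd (0.29), 1.34 for Dusp1 (0.27), 0.34 for Ddit4 (0.11) and 0.30 for Bcl6 (0.10). Of all genes, 9.6% were called there, 4.97% higher and 4.62% lower, and nothing is read from the place of the 9 genes among them. Without replicate 1 these differences were 2.27, -0.23, 0.50, 0.94, 0.82, 0.83, 0.94, 0.15 and 0.22 in the same order, so that those of Nr3c1, Cebpd and Ddit4 were smaller by over 1.5 times. E2 plus fulvestrant against vehicle gave 3.17, -0.38, 0.49, 0.62, 0.85, 1.21, 1.58, 0.50 and 0.61 in the same order of genes, and without replicate 1 2.26, -0.25, 0.43, 0.70, 0.75, 0.74, 0.99, 0.35 and 0.43. This last comparison shares its vehicle libraries with fulvestrant against vehicle and its treated libraries with the comparison before it. Klf15, whose E2 libraries had the lowest mean of the 4 groups, differed by 0.88 from E2 and by 0.61 between fulvestrant and vehicle, and Bcl6, whose E2 mean lay above vehicle, by 0.30 and 0.51. Whether these pairs of differences differ was not tested.

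Other genes that glucocorticoids are known to raise were taken as a list of 28, of which 23 were listed. Against vehicle, 11 were called higher with fulvestrant, 1 lower and 11 neither, where 6.76% of all genes were called higher and 5.69% lower. The median log2 difference was 0.47 against 0.01 for all genes. This list and those below were chosen with earlier results of these data known, so their counts are descriptions. The largest was that of Errfi1, which encodes an inhibitor of the EGF receptor, at 1.62 (SE 0.16, limma adjusted p = 1.27e-04). The metallothionein gene Mt2 (1.42, limma adjusted p = 9.30e-04) and Glul, the glutamine synthetase gene (1.39, limma adjusted p = 8.57e-04), followed. Steap4, a metalloreductase gene, fell by 1.29 log2 units (limma adjusted p = 0.0109), and its replicate 1 had only 66.2 normalized counts in vehicle against 3595 and 3564 in replicates 2 and 3.

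The other genes called higher were Rgs2, Mt1, Tsc22d3, Sgk1, Per1, Anxa1, Cebpb and Rhob. Tsc22d3, which encodes the anti-inflammatory protein GILZ and was singled out after its values were seen, had 2925, 1329 and 1231 normalized counts in vehicle and 8903, 1874 and 1867 with fulvestrant, so that replicate 1 moved most, as for Fkbp5. Its fitted difference was 0.90 (limma adjusted p = 0.0166). Zbtb16, Trim63, Lcn2, Tat and Pck1 were not listed. Without replicate 1 the list had 11 higher and 2 lower with a median of 0.16, and without the replicate block 3 higher, Anxa1, Glul and Per1. Without replicate 2 it had 10 higher and 0 lower and without replicate 3 it had 9 and 0, and neither Steap4 nor Tsc22d3 was called in either fit. Of all 13233 genes, 2312 were called without replicate 1, 540 without replicate 2, 399 without replicate 3 and 72 without the block. In E2 against vehicle and in E2 plus fulvestrant against fulvestrant, 0 of the 23 were called.

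**Figure D4:**
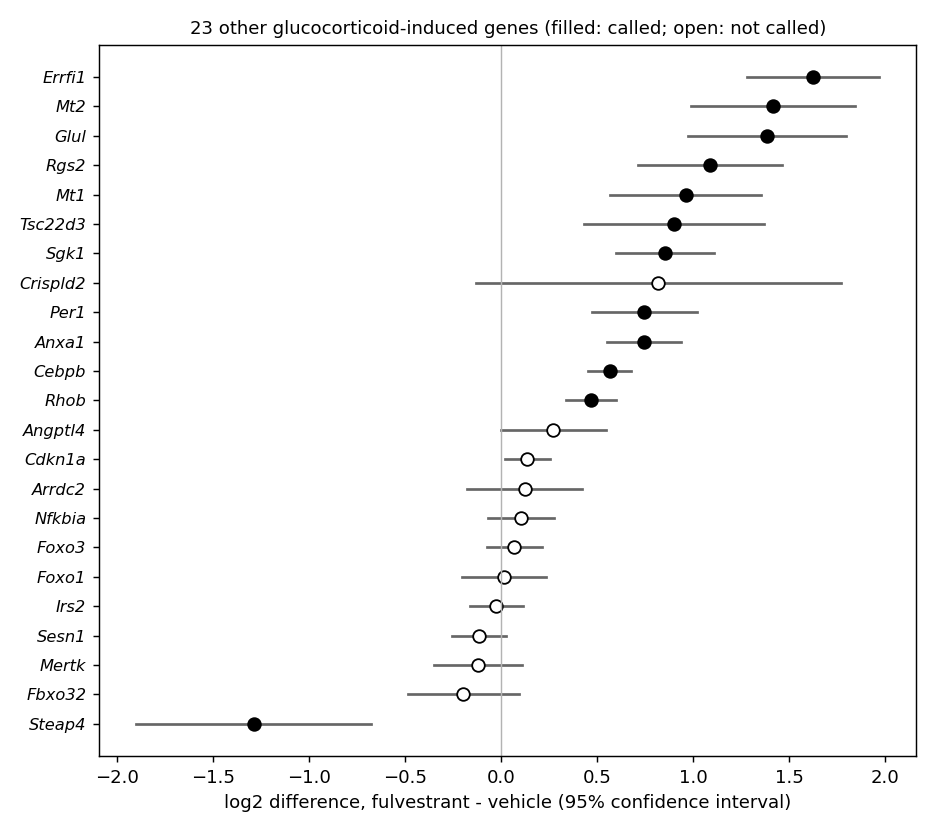
Fitted log2 differences between fulvestrant and vehicle (x axis) with 95% confidence intervals for the 23 listed genes among other genes that glucocorticoids raise, ordered by size, with filled symbols for genes called. Errfi1 is highest at 1.62, Steap4 lowest at -1.29, and 11 genes are open.

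Of 15 inflammatory genes that glucocorticoids are known to lower, 9 were listed. With fulvestrant 1 was called higher and 2 lower, against 6.76% and 5.69% of all genes, with a median of 0.22. Ptgs2, which encodes cyclooxygenase 2, was higher by 0.91 log2 units (limma adjusted p = 3.68e-04). The chemokine gene Cxcl5 fell by 1.41 (limma adjusted p = 4.75e-04) and the adhesion molecule gene Vcam1 by 0.48 (limma adjusted p = 0.0126). The other 6 were not called. Without replicate 1 the list had 3 higher, Ccl7 and Cxcl1 among them, and 2 lower. Vcam1 was not called without replicate 2 or 3, the median was 0.05 without replicate 3, and without the replicate block 0 were called.

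All 15 genes for chaperones and cochaperones of the receptor were listed. With fulvestrant 4 were called higher and 0 lower, against 6.76% and 5.69% of all genes, with a median of 0.20. They were Hspa1a (0.92, limma adjusted p = 0.00217), whose reads may be shared with the near-identical Hspa1b, Hsp90aa1 (0.54, limma adjusted p = 0.00224), Ppp5c (0.30, limma adjusted p = 0.00344) and Stip1 (0.27, limma adjusted p = 0.0157). The number of these genes called was 7 without replicate 1 and 0 without replicate 2 or 3 or without the block.

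Among the other steroid receptors, 0 were called higher with fulvestrant. The progesterone receptor gene Pgr fell by 1.82 log2 units (limma adjusted p = 0.00148) and the estrogen receptor gene Esr1 by 1.46 (limma adjusted p = 9.93e-04). Pgr was not called without replicate 2 or 3, and without the replicate block neither gene was. Pgr, a gene that E2 is known to raise, was the 1 gene on any of these lists called with E2, higher by 1.88 log2 units (limma adjusted p = 0.0343), though without replicate 2 or 3 no gene was called with E2. The mineralocorticoid receptor gene Nr3c2, whose product also binds glucocorticoids, was not called and was singled out after its values were seen (-0.50, limma adjusted p = 0.102).

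Genes that make, inactivate or export glucocorticoids numbered 7 of 8 listed, with 1 called higher, against 6.76% of all genes. That was H6pd, whose enzyme supplies NADPH for the reactivation of glucocorticoids in the endoplasmic reticulum, at 0.74 log2 units (limma adjusted p = 1.27e-04). Hsd11b1, the reductase itself, also named after its values were seen, had a difference of 0.77 and was not called (limma adjusted p = 0.0649). Without replicate 1 4 genes of the list were called, Hsd11b1, Abcb1b, Akr1c14 and H6pd, of which 3 were higher and 1 lower, and without the replicate block 0 were called. Of 11 receptor coregulators 10 were listed, and 0 were called in either direction with fulvestrant (10 of 10 not called), with a median of -0.05, and without replicate 1 there was 1 called lower.

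Markers of the fibroblasts themselves also moved. Of the 9, Col1a1 (-0.43, limma adjusted p = 0.0119), Lum (-1.18, limma adjusted p = 2.65e-04) and Esr1 were called lower with fulvestrant and 0 higher. Over all genes 5.69% were called lower and 6.76% higher. Their summed level was 364552 to 467440 normalized counts in vehicle, 403908 to 496968 with E2, 313766 to 377613 with E2 plus fulvestrant and 297821 to 403638 with fulvestrant. None of the listed endothelial, leukocyte, adipocyte, mural or Schwann cell markers was called. Any part of these levels in the differences of the 9 genes was not tested.

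Genes whose pattern over the 12 libraries was most like that of Fkbp5 were found from replicate-centred log2 values, as the root mean square difference from Fkbp5. They were Ppl (0.54), Sult1a1 (0.56), Pi16 (0.64), Ace (0.66) and Map3k6 (0.73), which encode the plakin periplakin, a sulfotransferase, a peptidase inhibitor, the angiotensin-converting enzyme and a MAP kinase kinase kinase. All were higher with fulvestrant than with vehicle, by 1.85 to 3.95 on the log2 scale. Sult1a1 had 33.1, 32.2 and 32.8 normalized counts in vehicle and 1061, 409 and 324 with fulvestrant, with replicate 1 highest under fulvestrant as for Fkbp5. Ppl had 37.5, 131 and 131 in vehicle and 534, 586 and 483 with fulvestrant. The measure favours genes with large differences. Centring removes the mean of each replicate number, but not a response that differs between replicate numbers, so the likeness is a description.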

How the data were processed

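RNA from HAFs was sequenced in 12 libraries of 4 groups (RNeasy extraction, KAPA RNA HyperPrep with RiboErase). Per the labels and the study's methods, the authors trimmed reads with Trimmomatic 0.39, removed ribosomal reads, aligned with STAR 2.5.2 to mm10, counted with HTSeq 0.13.5 by strand, dropped counts under 10 and normalized with DESeq2 1.37. The deposited values are a signal, normalized read counts (counts divided by one factor per library). The values (100%) were whole multiples of one read within 0.01 reads. The methods name batch adjustment of these data without naming the batches or saying whether the deposited table was adjusted. IDs were given symbols and positions from GENCODE M21 (13149 of 13233 with a symbol, 79 without a position).

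Values were log2 transformed with a pseudocount of 1, without a filter, and fitted with limma 3.58.1 (R 4.3.3) over all 12 libraries, with group and replicate number as terms, a variance trend and Benjamini-Hochberg adjustment over all genes. A call needed an adjusted p under 0.05 and a fold change over 1.2. Intervals cover 95%. Replicate numbers come from the sample titles. Deviations from group means of the 18 same-numbered pairs of libraries correlated at 0.63 to 0.92 across genes, so the numbers were taken to pair the libraries. Of the 36 pairs with different numbers the correlations were -0.86 to 0.79. As the ranges overlap, the correlations do not show that each number marks a true pairing. The fit was tested on simulated data over 13233 genes for fulvestrant against vehicle, with 200 genes changed: 97% of log2 changes of 1 and 54% of those of 0.5 were called, 2.6% of calls were of unchanged genes, and with no change there were 0 calls. The simulation gave all genes a common dispersion and the same replicate effects in every group. It therefore does not give the error rates of these data.

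The 9 genes, the lists and the tests were chosen with earlier results of these data known. Named with values are the 9 genes, at most 4 called genes per list by absolute difference, and the 5 genes most like Fkbp5. Outside this rule, Tsc22d3, Nr3c2 and Hsd11b1 were named after their values were seen, and Pdgfra as a fibroblast marker. One result among the steroid receptors is not reported here. Tables and figures were made with Python 3.11.15, pandas 2.3.3, numpy 2.4.6 and matplotlib 3.10.9. Alternatives were the fit without the block, the 2 groups alone, other pseudocounts, a filter, other scalings and leaving out replicates.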

Additional observations from a re-analysis of the deposited data

Results flagged for a closer look

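The small differences of Cebpd with E2 had opposite signs without and with fulvestrant. E2 lay below vehicle in all 3 replicate numbers, with log2 differences of -0.08, -0.14 and -0.04, and E2 plus fulvestrant lay above fulvestrant in all 3, with 0.12, 0.12 and 0.05. The fitted responses differed by -0.18 on the log2 scale, without fulvestrant minus with it. The difference was not tested, each response is small beside the interval of the gene given above, and neither was called by limma. The fitted E2 difference, -0.09, changed sign when vehicle replicate 2, vehicle replicate 3 or E2 replicate 1 was left out (0.11, 0.02 and 0.22). That under fulvestrant, 0.10, changed sign without E2 plus fulvestrant replicate 1, fulvestrant replicate 2 or fulvestrant replicate 3 (-0.22, -0.09 and -0.02).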

How the results depend on the processing

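All differences of the 9 genes between fulvestrant and vehicle kept their direction under every alternative that was run. Of 153 such values under alternatives, 119 stayed on the same side of the call and 34 lost it, most often Nr3c1 and Cebpd. Without the replicate block the number of genes called in fulvestrant against vehicle was 72 (40 higher, 32 lower) in place of 1648 (895 higher, 753 lower), and of the 9 genes 1 in place of 9. For E2 against vehicle it was 1 in place of 10 without the block, and it changed no other call of the 9 genes. With only the 2 groups compared and the block, 692 genes (362 higher, 330 lower) were called in the first comparison and 57 in the second, and of the 9 genes 6 in the first, without Nr3c1, Cebpd and Bcl6. Without a variance trend 3 genes were called for E2 against vehicle, and 7 of the 9 for fulvestrant, without Nr3c1 and Cebpd. Leaving out replicates gave 399 to 2312 genes and 4 to 9 of the 9 for fulvestrant against vehicle, 0 to 59 genes for E2 against vehicle, and 0 to 4 genes for E2 plus fulvestrant against fulvestrant. Leaving out replicate 3 of every group gave the lowest numbers, 399 genes and 4 of the 9, and replicate 2 gave 540 and 5. Scaling all libraries to the same sum gave 688 higher and 951 lower in place of 895 and 753. Pseudocounts of 0.5 and 8, a mean of at least 100 and quantile normalization changed no call of the 9 genes in fulvestrant against vehicle. Of the values that were not called, 16 of 153 changed sign for E2 against vehicle and 27 of 153 for E2 plus fulvestrant against fulvestrant, all of them when libraries were left out. Count models on the whole reads behind the values were planned and not run. The pathway and paralog lists, but not the cell type markers, were refitted without each replicate and without the block, alternatives chosen after seeing the data. With 3 libraries a group, the simulated test called 54% of changes of 0.5 on the log2 scale, under a simpler spread than that of these data. That share is not the power of the test here. Causes of these changes were not tested.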

Other observations

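Relatives of the 9 genes in the same families were taken as a list of 44, of which 37 were listed. With fulvestrant, 11 were called higher than vehicle and 4 lower, against 6.76% and 5.69% of all genes, with a median log2 difference of 0.10. Klf12, a repressor of the Klf family, fell by 1.09 log2 units (limma adjusted p = 9.97e-05), the other way from Klf9 and Klf15. The dual-specificity phosphatase genes Dusp8 (0.84, limma adjusted p = 0.00162), Dusp5 (0.75, limma adjusted p = 0.0289) and Dusp14 (0.67, limma adjusted p = 0.0103) were higher, as Dusp1 was, and Dusp4 and Dusp6 were called higher too. Klf2, Klf4, Klf5, Klf6, Klf13 and Cebpb completed the genes called higher, and Fkbp7, Fkbp14 and Ddit4l those called lower. Cebpb was also counted on the list of other genes that glucocorticoids raise. Of the listed Fkbp relatives none was called higher, and none of Pdk1, Pdk2 and Pdk3 was called in either direction, although Pdk2 was without replicate 1. Without replicate 2 or 3 there were 4 higher and 2 lower, in fits that called 540 and 399 of all genes. Dusp4, Dusp5, Dusp14, Klf4, Klf5, Klf6 and Fkbp14 were called in neither of these fits, and Fkbp14 was not called without replicate 1 either. Dusp8 and Fkbp7 were not called without replicate 2, and Dusp6 and Ddit4l not without replicate 3. Klf12, Klf2, Klf13 and Cebpb were called in both of these fits. Without the replicate block 1 gene, Klf13, was called.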
